A study of Mus musculus with 12 samples.

Results

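Alcohol and aldehyde dehydrogenases were followed as 10 mouse genes, Adh1, Adh4, Adh5, Aldh1a1, Aldh1a2, Aldh1a7, Aldh1b1, Aldh1l1, Aldh2 and Aldh3a2, which were picked by name from the 53715 genes of a bulk RNA-seq count table and matched to their Ensembl identifiers. The table holds 4 biological replicates of each of 3 groups, all from the mouse strain C57BL/6JOlaHsd, with no allele or transgene named by the labels. Hepatoblasts, the fetal progenitors of hepatocytes and bile duct cells, were isolated at E14.5 by magnetic selection for the surface protein Dlk1 and lysed directly. The study's methods pool several embryonic livers in an isolation and report a minority of cells positive for the bile duct marker Sox9 in the E14.5 selection. Diff. hepatocytes were hepatoblasts of the same embryonic day that had been cultured for 4 days on fibronectin in a differentiation medium with serum, an insulin-containing supplement, Matrigel and dexamethasone, a synthetic glucocorticoid. Mature hepatocytes were isolated by collagenase perfusion from adult male mice 8 to 12 weeks old and lysed directly, so age and the male sex differ together between mature hepatocytes and the other groups, to which culture adds for Diff. hepatocytes, and these cannot be told apart in the comparisons with mature hepatocytes. All 10 genes were among the 17779 that had more than 10 counts in at least 1 library and were tested.

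Alcohol dehydrogenases oxidise alcohols to aldehydes, and aldehyde dehydrogenases oxidise aldehydes to carboxylic acids, both with NAD or NADP as the electron acceptor. In the adult liver the best known flow is from ethanol through acetaldehyde to acetate. Related enzymes of the families turn retinol into retinaldehyde and then into retinoic acid, detoxify formaldehyde, release carbon dioxide from 10-formyltetrahydrofolate, and oxidise long-chain fatty aldehydes.

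The 3 alcohol dehydrogenase genes lie in 1 cluster on the plus strand of chromosome 3 (GRCm38, GENCODE). Adh1 spans chr3:138260991-138290698, Adh4 spans chr3:138415466-138430892 and Adh5 spans chr3:138443093-138455499. The coding sequence of Adh1 was 63.3% identical to that of Adh4 and 66.1% identical to that of Adh5. Aldh1a1, at chr19:20492715-20643465 on the plus strand, and Aldh1a7, at chr19:20692953-20727562 on the minus strand, are neighbours whose coding sequences were 91.7% identical. Aldh1a2 lies at chr9:71215789-71296243 (plus strand), Aldh1b1 at chr4:45799022-45804604 (plus strand), Aldh1l1 at chr6:90486427-90600203 (plus strand), Aldh2 at chr5:121566027-121593824 (minus strand) and Aldh3a2 at chr11:61223417-61267464 (minus strand). Aldh1b1 and Aldh2, both mitochondrial, were 70.2% identical in coding sequence, and their identity to Aldh3a2 was 47% and 48.3%.

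RefSeq promoter windows, 250 bases before to 50 bases after a transcription start, were found for 9 of the 10 genes in 11 windows, with a pair of starts each for Aldh1a1 and Adh5. The windows of the downstream start of Aldh1a1 and of Aldh1a7 are printed because they were the most alike, with 94 of the last 100 bases before the start identical. Over the whole window this pair was 70.4% identical, and the other pairs of member windows were at most 51% identical. Below are the bases from 100 to 11 before each start (GRCm38.p6, chr19:20601868-20601957 on the plus strand for Aldh1a1 and chr19:20727567-20727656 on the minus strand for Aldh1a7). Capitals mark the 6 of 90 bases that differ.
Aldh1a1: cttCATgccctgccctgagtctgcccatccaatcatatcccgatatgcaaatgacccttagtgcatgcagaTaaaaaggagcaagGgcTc
Aldh1a7: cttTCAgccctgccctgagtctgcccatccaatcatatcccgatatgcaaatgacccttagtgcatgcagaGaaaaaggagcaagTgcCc

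Adh4 and Adh5, adjacent in the cluster, are shown because they had the largest and, among those that were higher in the adult cells, nearly the smallest difference from hepatoblasts to mature hepatocytes. The 120 bases before the annotated transcripts are given on the plus strand, from chr3:138415346-138415465 for Adh4 and chr3:138442973-138443092 for Adh5. Capitals mark AGGTCA, a motif bound by nuclear receptors, in Adh4, and CCGCCC, the reverse strand of the GC box GGGCGG, in Adh5.
Adh4: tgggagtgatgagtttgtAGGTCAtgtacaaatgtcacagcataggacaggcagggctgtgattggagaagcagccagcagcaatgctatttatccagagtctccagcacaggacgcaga
Adh5: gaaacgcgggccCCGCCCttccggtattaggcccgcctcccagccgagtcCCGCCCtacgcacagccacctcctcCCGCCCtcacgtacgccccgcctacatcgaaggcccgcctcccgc

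The Adh5 window at this start held 26 CpG dinucleotides and 3 GC boxes, and the Adh4 window held 1 CpG and AGGTCA at 133 and at 11 bases before the RefSeq start, the latter within the first exon of GENCODE. The other Adh5 window held 3 CpG, no GC box, and TATAAA at 207 bases before its start, and gene counts do not separate the starts. The median of the 32851 promoter windows was 7 CpG. Windows of Aldh1a1 (3 and 1 CpG), Aldh1a7 (1) and Adh1 (6) lay below that median, and those of Aldh3a2 (21), Aldh1l1 (9) and Aldh1a2 (50) lay above it, while Aldh1b1 was at 7. Aldh1b1, Aldh1l1 and Aldh3a2 had 1 GC box each. The letters searched on both strands, which could overlap, were TATAAA (in 13.6% of all windows), GGGCGG (GC box, 35.7%), TTGCNNAA (C/EBP, 10.8%), AGGTCA (nuclear receptors, 16.3%), TGTTTAC (forkhead, 3.65%), GTTAAT (HNF1, 7.1%), AGAACA (glucocorticoid receptor, 19%) and TTCNNNGAA (STAT, 8.3%). The C/EBP letters were found at 234 bases before the start of Aldh1l1 and at 13 bases before the upstream start of Aldh1a1, and those of HNF1 at 150 bases before the start of Aldh1a7. AGAACA lay at 235 bases before the start of Adh1. AGGTCA was also found at 178 bases before the start of Aldh1l1, and TATAAA at 244 bases before that of Aldh1a7. These matches describe letters and are no evidence of binding.

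Libraries held 19581551 to 25216977 counts on genes. Markers set mature hepatocytes apart. The summed counts scaled to library size (CPM, with TMM factors) of 5 hepatoblast genes were 41798 to 70025 in hepatoblasts. They were 37824 to 44142 after culture and 65.9 to 109 in mature hepatocytes. Those of 7 hepatocyte genes were 32779 to 55459, 53533 to 61815 and 116564 to 164428 CPM in the same order. Both sums overlapped between hepatoblasts and Diff. hepatocytes, and single markers differed. After culture Dlk1 was lower (88.3 to 99.1 against 2461 to 4199 CPM) and H19 higher (19222 to 24537 against 10392 to 18040 CPM). Likewise Cps1 was higher (5298 to 6190 against 16.7 to 29.9 CPM) and Ttr lower (905 to 1143 against 1448 to 2507 CPM). These examples were picked after their values were seen. Hepatoblast replicate 1 stood apart by other cells' genes. Its 10 erythroid markers summed to 3076 CPM, against 379 to 625 in the other hepatoblast libraries, and its 9 macrophage markers to 343 CPM, against 81.5 to 94.6. It was the lowest hepatoblast library for 8 of the 10 dehydrogenases. Diff. replicate 1, the lowest of its group for 7 of the 10, had the highest summed mesenchymal markers (2392 CPM, against 1068 to 1685) and bile duct markers (233 CPM, against 92.7 to 118). Between the groups, the bile duct sum was 26.9 to 35.7 CPM in hepatoblasts, below all Diff. libraries, and the erythroid sum was 6.97 to 29.3 CPM in Diff. hepatocytes, below all hepatoblast libraries. Without both of these libraries, chosen after the data were seen, the same numbers of dehydrogenases were called in each comparison as with them (7, 10 and 8). The part of other cells in the values was not tested, and in bulk RNA fewer cells of a type cannot be told apart from less RNA per cell.

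By CPM, mature hepatocytes had the highest level of 8 of the 10 genes and hepatoblasts that of Aldh1a2. For Aldh1b1, Diff. hepatocytes overlapped with hepatoblasts at the top. The quasi-likelihood test of edgeR, with p adjusted over all genes by the Benjamini-Hochberg method, was applied to each difference. Genes that had an adjusted p below 0.01 and differed by more than 1 on the log2 scale were called. The 3 comparisons share libraries: hepatoblasts serve 2 of them, as do Diff. and mature hepatocytes. Values by library are in the plot of log2 CPM by group.

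**Figure D1:**
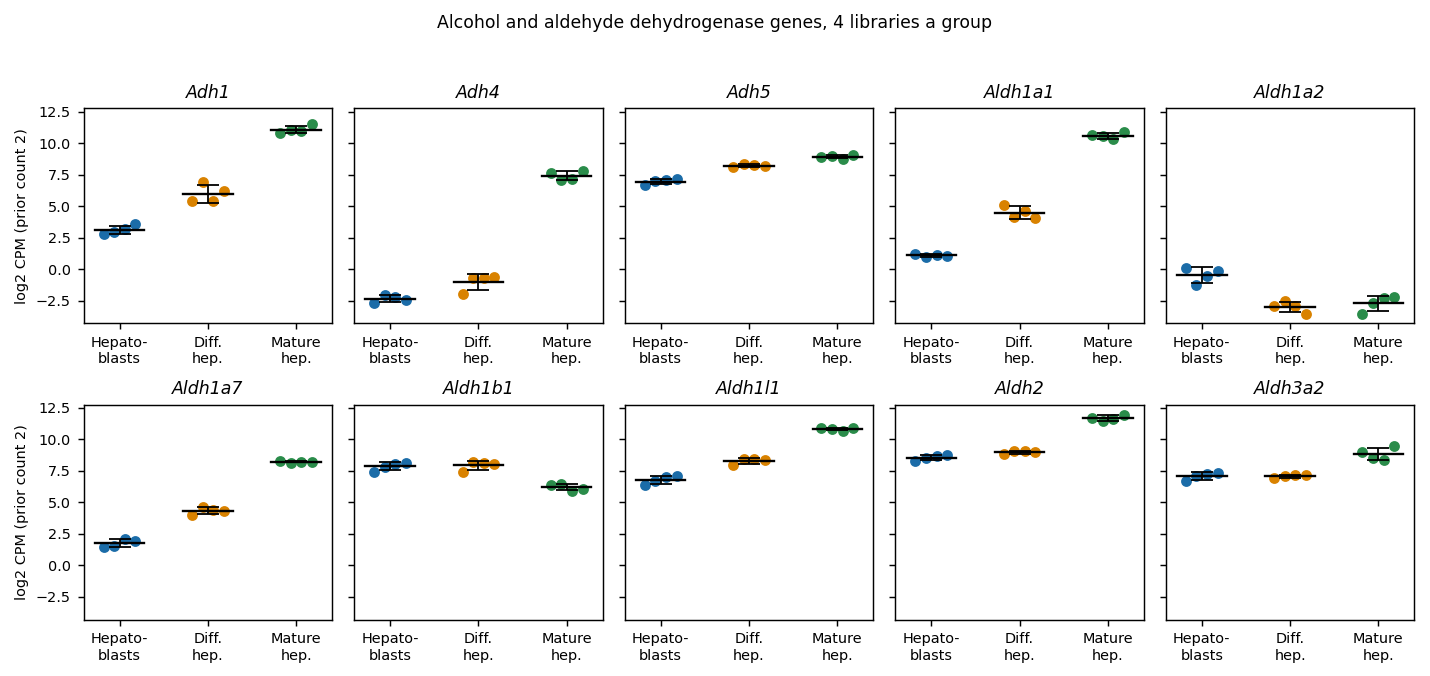
Each panel shows 1 gene, with log2 CPM (prior count 2) on the vertical axis and the 3 groups on the horizontal axis. Points are the 4 libraries of a group in replicate order, and bars the mean ± SD. The Adh1, Adh5, Aldh1a1, Aldh1a7 and Aldh1l1 panels show 3 separate levels, whereas Aldh1b1 has its lowest points in mature hepatocytes. In the Adh4 panel Diff. replicate 1 (-1.95) lies close to the highest hepatoblast point (-2.09).

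Adh1, the class I enzyme that carries most ethanol oxidation in the adult liver and also oxidises retinol, was at 6.97, 7.52, 8.94 and 11.7 CPM in hepatoblast replicates 1 to 4. It was at 42.8, 117, 41.8 and 73.1 CPM in Diff. hepatocytes. In mature hepatocytes it reached 1821, 2055, 1951 and 2915 CPM. The 3 groups did not overlap, and the Diff. libraries were the most uneven, 2.8-fold between the lowest and the highest. Adh1 rose 7.82-fold from hepatoblasts to Diff. hepatocytes (log2 2.97 ± 0.33 SE, adjusted p = 4.43e-06, edgeR) and was 249-fold higher in mature hepatocytes than in hepatoblasts (log2 7.96 ± 0.40 SE). Diff. hepatocytes reached 3.14% of the mature CPM, 31.8-fold lower (adjusted p = 4.64e-08, edgeR).

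Adh4, the class II enzyme, which works on ethanol at high concentration and on retinol, was close to the detection limit outside mature hepatocytes. Hepatoblasts had 2 to 5 counts a library (0.0645, 0.149, 0.13 and 0.0994 CPM) and Diff. hepatocytes 4 to 12 counts (0.173, 0.517, 0.533 and 0.542 CPM), against a limit of 3 counts that a count of 0 would allow. Mature hepatocytes had 194, 136, 141 and 221 CPM, far above every other library. The pooled counts gave a ratio of 1545 of mature hepatocytes to hepatoblasts (95% interval 921 to 2828, counting error only) and of 394 to Diff. hepatocytes (288 to 554). The edgeR log2 difference was 10.53 ± 0.30 SE for mature hepatocytes over hepatoblasts and -8.61 ± 0.27 SE for Diff. over mature hepatocytes (adjusted p = 6.83e-12 and 2.44e-11). From hepatoblasts to Diff. hepatocytes the ratio was 3.92 (2.08 to 7.82), on 14 and 39 counts in all, and was called (log2 1.92 ± 0.48 SE, edgeR adjusted p = 0.00362). That call was lost without hepatoblast replicate 1, or without Diff. replicate 2, 3 or 4, with adjusted p of 0.0108 to 0.0126 in edgeR.

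Adh5, the class III enzyme that oxidises glutathione-bound formaldehyde and reduces S-nitrosoglutathione in nearly all tissues, had the smallest fold of the 6 genes that rose to Diff. hepatocytes. It was at 101, 124, 133 and 138 CPM in hepatoblast replicates 1 to 4. Culture brought it to 274, 317, 308 and 292 CPM. Mature hepatocytes had 477, 504, 437 and 537 CPM, and no groups overlapped by CPM. Diff. and mature hepatocytes did overlap in counts per exon length, scaled to the same sum in each library (TPM). These were 128 to 146 in Diff. and 114 to 148 in mature hepatocytes. The step from hepatoblasts to Diff. hepatocytes was 2.4-fold (log2 1.26 ± 0.11 SE, edgeR adjusted p = 5.17e-07), and that to mature hepatocytes 3.94-fold. Diff. hepatocytes were at 60.9% of the mature CPM, a log2 difference of -0.71 (95% interval -0.95 to -0.48) that passed the adjusted p but not the fold threshold. With library totals in place of TMM the step to Diff. hepatocytes was 0.95 on the log2 scale and no longer called.

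Aldh2, the mitochondrial enzyme that clears acetaldehyde, had 311, 369, 422 and 425 CPM in hepatoblasts. Diff. hepatocytes had 455, 533, 538 and 516 CPM. Mature hepatocytes had 3428, 2772, 3083 and 4036 CPM. By CPM the Diff. libraries lay above all hepatoblast libraries, but the difference was small (log2 0.42, 95% interval 0.12 to 0.71, edgeR adjusted p = 0.018) and was not called. By TPM these groups overlapped, at 237 to 270 in hepatoblasts and 224 to 258 in Diff. hepatocytes. Mature hepatocytes were 8.72-fold above hepatoblasts (log2 3.12 ± 0.15 SE, edgeR adjusted p = 6.51e-10) and 6.52-fold above Diff. hepatocytes.

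Aldh1b1, another mitochondrial aldehyde dehydrogenase, which also accepts acetaldehyde and retinaldehyde, went the other way. It had 171, 226, 265 and 282 CPM in hepatoblasts. Diff. hepatocytes had 175, 290, 283 and 265 CPM. In mature hepatocytes it had 84.1, 89.5, 60.9 and 67.5 CPM. Hepatoblasts and Diff. hepatocytes overlapped (log2 difference 0.10, 95% interval -0.30 to 0.51, edgeR adjusted p = 0.657), and replicate 1 was the lowest library in both. Mature hepatocytes were 3.13-fold below hepatoblasts (log2 -1.64 ± 0.19 SE, edgeR adjusted p = 4.44e-06), and Diff. hepatocytes were 3.36-fold above mature hepatocytes. It was the 1 dehydrogenase of the 10 called higher in Diff. than in mature hepatocytes.

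Aldh1a1, the cytosolic enzyme that makes retinoic acid from retinaldehyde, had 2.19, 1.82, 2.1 and 1.99 CPM in hepatoblasts. Diff. hepatocytes had 34.6, 17.7, 24.7 and 16.2 CPM, highest in replicate 1, the library that was lowest in its group for most of the other genes. Mature hepatocytes had 1567, 1468, 1262 and 1891 CPM. The groups did not overlap, and the rise was 11.5-fold to Diff. hepatocytes (log2 3.52 ± 0.24 SE, edgeR adjusted p = 5.62e-08), the largest fold increase of the 10 in that comparison. Mature hepatocytes were 762-fold above hepatoblasts and 66.3-fold above Diff. hepatocytes, which reached 1.51% of the mature CPM.

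Aldh1a7, the neighbouring rodent paralog of Aldh1a1, had 2.71, 2.87, 4.27 and 3.68 CPM in hepatoblasts. It had 16, 25.3, 20.5 and 20.5 CPM in Diff. hepatocytes, and 319, 289, 303 and 299 CPM in mature hepatocytes, 3 levels without overlap. It was the most even of the 10 genes among the mature libraries, with a CV of 4.13%. It rose 6.08-fold to Diff. hepatocytes (log2 2.60 ± 0.16 SE, edgeR adjusted p = 2.3e-08) and was 89.4-fold higher in mature hepatocytes than in hepatoblasts (log2 6.48 ± 0.18 SE). Of the 75-base sequences in the transcripts, 2.51% of those of Aldh1a7 and 1.01% of those of Aldh1a1 occur in the other gene, so few reads of these genes could be assigned to either.

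Aldh1a2, the main retinaldehyde dehydrogenase of the embryo, was the 1 gene of the 10 highest in hepatoblasts, and was low there. Hepatoblast replicates 1 to 4 had 30, 11, 18 and 25 counts (0.328 to 0.967 CPM). Diff. hepatocytes had 1, 2, 1 and 0 counts (0 to 0.0861 CPM) and mature hepatocytes 0, 1, 2 and 2 counts (0 to 0.124 CPM). Every hepatoblast library was thus above all 8 others. The pooled counts gave 84 against 4 for hepatoblasts over Diff. hepatocytes (ratio 14.9, 95% interval 5.61 to 56, counting error only) and 84 against 5 over mature hepatocytes (8.48, 3.49 to 26.8). Both were called in edgeR (adjusted p = 0.00015 and 0.00053). Between Diff. and mature hepatocytes all libraries were at or under the limit of 3 counts.

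Because Aldh1a2 is known from mesothelial and mesenchymal cells of embryonic organs, its level was set beside markers of such cells. The 10 mesenchymal and stellate markers summed to 1098 to 1939 CPM in hepatoblasts, 1068 to 2392 CPM after culture and 62.9 to 94.1 CPM in mature hepatocytes. The 7 mesothelial markers summed to 8.24 to 13.5, 11.1 to 24.3 and 0.642 to 2.13 CPM in the same order, and in mature hepatocytes none of the 7 had more than 3 counts in every library. The 8 endothelial markers were at 46.5 to 158, 29.4 to 33.2 and 145 to 263 CPM. The single markers did not move together. In the mesothelial list Muc16 was at 0.567 to 1.42 CPM in hepatoblasts and 0.043 to 0.133 CPM after culture, and Upk3b at 2.33 to 4.5 and 0.732 to 2 CPM, both lower as Aldh1a2 was, whereas Msln was at 0.232 to 0.478 and 4.52 to 12.8 CPM. In the mesenchymal list Reln was at 589 to 973 and 62.3 to 116 CPM, whereas Col1a1 was at 221 to 426 and 396 to 1183 CPM and Acta2 at 7.67 to 14.2 and 139 to 381 CPM. In the endothelial list Eng was at 10.6 to 18.4 and 20.2 to 24.6 CPM, most of the sum after culture. By contrast Cdh5 was at 8.55 to 29.6 and 0.577 to 1.64 CPM, and Stab2 at 9.91 to 41.7 and 0.844 to 1.68 CPM. Kdr, Lyve1, Tek and Oit3 were also lower after culture, and Pecam1 overlapped. These single markers were chosen after their values were seen. Hepatoblast replicate 1, the highest for Aldh1a2, had the lowest mesenchymal and the highest endothelial sum of its group. The part of these cells in the result was not tested.

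Aldh1l1, the cytosolic 10-formyltetrahydrofolate dehydrogenase, had 82.5, 105, 130 and 137 CPM in hepatoblasts. Diff. hepatocytes had 246, 353, 354 and 321 CPM. Mature hepatocytes had 1928, 1777, 1664 and 1891 CPM. The groups were apart, with replicate 1 lowest in hepatoblasts and in Diff. hepatocytes. Aldh1l1 rose 2.8-fold to Diff. hepatocytes (log2 1.49 ± 0.16 SE, edgeR adjusted p = 4.48e-06) and was 16-fold higher in mature hepatocytes than in hepatoblasts (log2 4.00 ± 0.18 SE, edgeR adjusted p = 4.1e-10). Of its 75-base sequences, 8.3% occur in overlapping genes, Gm15756 on the other strand and Gm45901, which had 86 and 4 counts over all libraries against 157374 of Aldh1l1. Adh1 and Aldh2 also overlap antisense genes, Gm16559 with 966 counts against 146200 and Gm42879 with 62 against 304388. Since the strand setting of the counting is not known here, reads of such a pair cannot be told apart with certainty.

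Aldh3a2, the enzyme of the endoplasmic reticulum that oxidises long-chain fatty aldehydes, had 103, 138, 152 and 161 CPM in hepatoblasts. Diff. hepatocytes had 120, 137, 141 and 144 CPM. In mature hepatocytes it had 503, 375, 327 and 711 CPM, a 2.18-fold spread. The first 2 groups overlapped by CPM (log2 difference -0.03, 95% interval -0.48 to 0.43, edgeR adjusted p = 0.921). Mature hepatocytes were 3.46-fold above hepatoblasts (log2 1.79 ± 0.22 SE, edgeR adjusted p = 5.52e-06) and 3.53-fold above Diff. hepatocytes. The former difference was 0.93 with library totals and then missed the fold threshold.

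Counted together, 6 of the 10 genes rose from hepatoblasts to Diff. hepatocytes (Adh1, Adh4, Adh5, Aldh1a1, Aldh1a7 and Aldh1l1), 1 fell (Aldh1a2) and 3 were not called. Of all 17779 genes tested, 14.9% were called higher and 14% lower in this comparison. Between mature hepatocytes and hepatoblasts 8 were higher and 2 lower, against 20.1% and 24.7% of all genes. Diff. hepatocytes had 1 gene called higher than in mature hepatocytes and 7 lower, against 20.2% and 15.6%. Library totals in place of TMM called 5 of the 10 higher and 1 lower, then 7 and 2, then 1 and 7, while the split of all genes between mature hepatocytes and hepatoblasts moved from 3580 higher and 4391 lower to 2007 and 7920. The median log2 differences of the 10 were 1.38, 3.56 and -2.61, and those of all genes -0.01, -0.15 and 0.09. By TMM-scaled CPM the groups did not overlap for 8, 10 and 9 of the 10 genes in the 3 comparisons, against 57.5%, 66% and 61.6% of all genes. For each gene whose groups did not overlap by CPM, the two-sided exact permutation test over 4 against 4 libraries gave p = 0.0286, the smallest it allows. These counts depended on the scaling. By TPM, Adh4 and Aldh2 overlapped between Diff. hepatocytes and hepatoblasts, whereas Aldh3a2 did not. Aldh3a2 overlapped between mature hepatocytes and hepatoblasts, and Adh5 between Diff. and mature hepatocytes. The share of all genes was not computed by TPM.

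**Figure D2:**
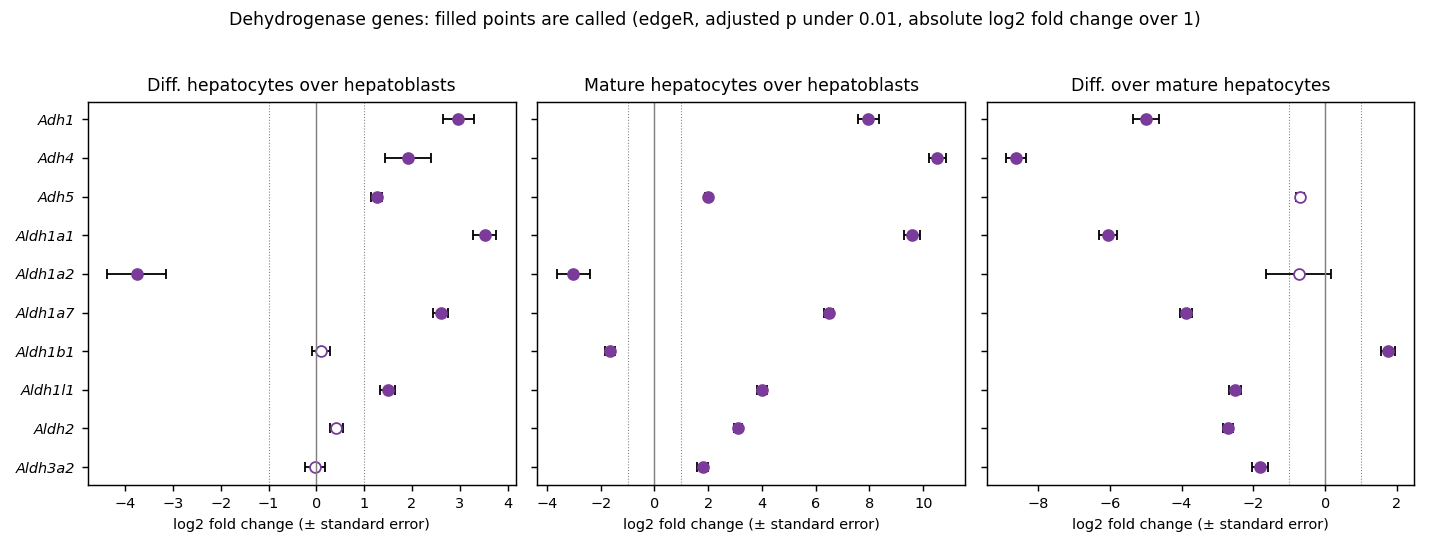
Log2 fold changes from edgeR are on the horizontal axes, with standard errors as bars, for the 10 genes in the 3 comparisons, each panel with its own scale. Filled points were called, dotted lines mark a log2 fold change of 1 either way, and Aldh1b1 is the filled point right of 0 in the panel of Diff. over mature hepatocytes.

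On the log2 scale, Diff. hepatocytes had covered different parts of the distance from hepatoblasts to mature hepatocytes. The share was 64.1% for Adh5, 39.9% for Aldh1a7, 37.3% for Aldh1l1, and 35.8% for both Adh1 and Aldh1a1. It was 13.7% for Aldh2 and -0.578% for Aldh3a2. For Adh4 it was 13.9%, on 2 to 5 counts a library in hepatoblasts and 4 to 12 in Diff. hepatocytes. For the 2 genes lower in mature hepatocytes it was -6.16% for Aldh1b1 and 113% for Aldh1a2, the latter on 0 to 2 counts. These shares are differences of mean log2 CPM, depend on the scaling and were not tested between genes. By mean TPM, Adh5 went from 79.3 before culture to 134 after it, above the adult mean of 127, though these last groups overlapped. Aldh2 was at 257 TPM before and 243 TPM after culture, with overlap, against 906 TPM in the adult cells. Aldh3a2 was at 84.8 TPM before and 58.9 TPM after culture, against an adult mean of 118 TPM. Shares were not computed by TPM.

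To compare levels between genes, counts were divided by the length of all exons and scaled to the same sum in each library (TPM). The order depended on the length used. In hepatoblasts Aldh1b1 had the highest level of the 10 (353 ± 46.1 TPM, SD, n = 4), followed by Aldh2 (237 to 270 TPM), with no overlap between them on this length. Aldh1l1, Aldh3a2 and Adh5 came next at 86.5, 84.8 and 79.3 TPM and overlapped with their neighbours in this order. Adh1 had 13.6 TPM and Adh4 0.263 TPM.

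In Diff. hepatocytes Aldh1b1 (268 ± 52.9 TPM) and Aldh2 (243 ± 14.2 TPM) overlapped at the top, and Aldh1l1 (172 TPM), Adh5 (134 TPM), Adh1 (75.3 TPM) and Aldh3a2 (58.9 TPM) followed, each overlapping with the next. In mature hepatocytes the order by TPM was Adh1 (1372 ± 278), Aldh2 (906 ± 86.3), Aldh1l1 (565 ± 44.1) and Aldh1a1 (439 ± 62.5), all apart from each other. Aldh1a7, Adh4, Adh5 and Aldh3a2 overlapped in turn between 206 and 118 TPM, and Aldh1b1 was ninth at 46.5 TPM.

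Per length of the principal transcript, an alternative chosen after the data were seen, Adh5 moved up most, since its exons span 5408 bases and its principal transcript 1604. It was then the highest of the 10 in Diff. hepatocytes, with 30.4% of their sum, before Aldh2 (21.6%) and Aldh1b1 (17.8%). Aldh1b1 (28.4%) and Aldh2 (27.6%) overlapped in hepatoblasts. In mature hepatocytes Adh1 (34.8%) and Aldh2 (20.6%) still came first, but Aldh1a1 (15.7%) was above Aldh1l1 (10.5%).

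Of the summed TPM of the 10 genes, Adh1 made up 1.53% in hepatoblasts, 7.41% after culture and 34.5% in mature hepatocytes. Aldh1b1 went from 39.9% through 27% to 1.19%. Aldh2 stayed between 20.9% and 31% in all 12 libraries. Per length of the principal transcript the shares in the same order were 1.63%, 7.32% and 34.8% for Adh1, and 28.4%, 17.8% and 0.801% for Aldh1b1.

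**Figure D3:**
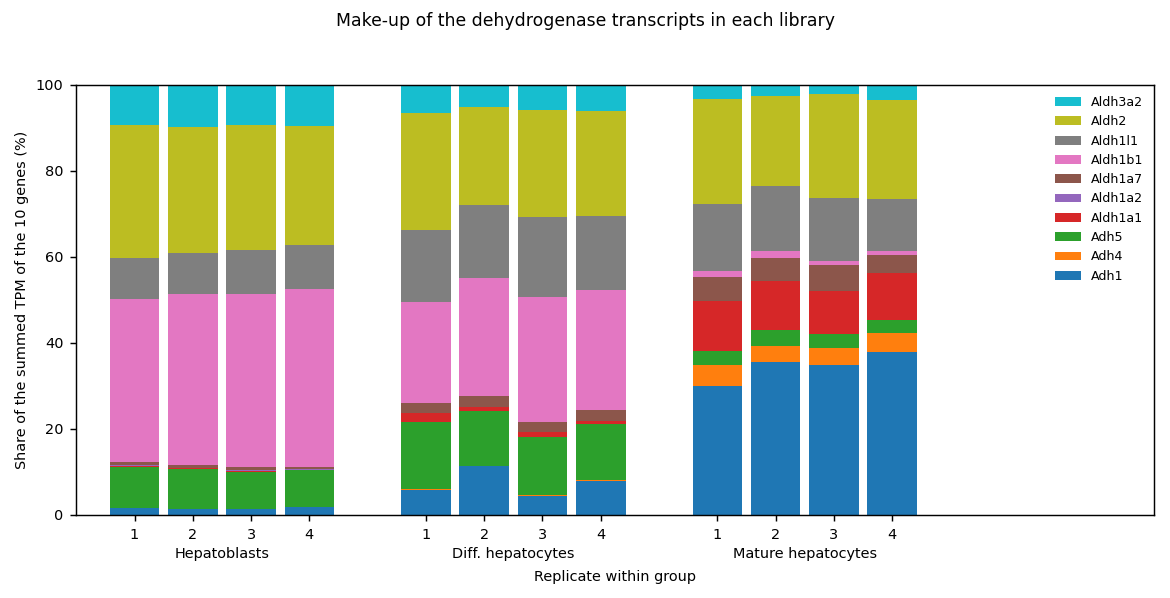
Each bar is 1 library and its segments are the shares, in percent, of the summed TPM of the 10 genes, with replicates 1 to 4 of each group side by side. The Aldh1b1 segment shrinks from 38.1% to 41.2% in hepatoblasts to 0.852% to 1.51% in mature hepatocytes, where Adh1 takes 29.9% to 37.9%.

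Ratios between related genes within a library do not depend on how libraries are scaled, and 5 pairs were compared in 3 comparisons with two-sided exact permutation tests, adjusted over the 15. Aldh1a7 exceeded Aldh1a1 in each hepatoblast library (log2 ratio of TPM 1.56, 1.91, 2.27 and 2.14) and each Diff. library (0.15, 1.77, 0.99 and 1.59), and was below it in each mature library (-1.04, -1.09, -0.80 and -1.41). The mean ratio went from 3.92 to 2.18 to 0.472. Mature hepatocytes differed from hepatoblasts by -3.05 on the log2 scale and Diff. from mature hepatocytes by 2.21 (exact permutation p = 0.0286 and adjusted p = 0.033 for both), whereas Diff. hepatocytes and hepatoblasts overlapped (p = 0.0857). Per length of the principal transcript, an alternative chosen after the data were seen, the mean ratios were 1.87, 1.04 and 0.225, with nearly equal levels in Diff. hepatocytes.

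The order of Adh1 and Adh5 also turned. The log2 ratio of TPM of Adh1 to Adh5 was -2.28 to -2.76 in hepatoblasts, -0.16 to -1.61 in Diff. hepatocytes and 3.21 to 3.72 in mature hepatocytes, so Adh1 was 5.89-fold below Adh5 in the first and 10.7-fold above it in the last. Per length of the principal transcript Adh1 was 13.3-fold below and 4.74-fold above Adh5 in these groups. All 3 comparisons had an exact permutation p of 0.0286 (adjusted p = 0.033). Adh4 rose relative to Adh1 in mature hepatocytes, from a mean log2 ratio of -5.52 in hepatoblasts to -3.04, with the same p, and the lower ratio in Diff. hepatocytes (-6.58) overlapped with that of hepatoblasts (p = 0.0857, exact permutation test).

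Between the mitochondrial enzymes, Aldh1b1 was above Aldh2 in each hepatoblast library (log2 ratio of TPM 0.30, 0.45, 0.48 and 0.57). In Diff. hepatocytes the ratio was -0.22, 0.28, 0.23 and 0.20, with replicate 1 on the other side of 0. In mature hepatocytes it was -4.19, -3.80, -4.50 and -4.74, a mean of 19.8-fold more Aldh2. The shift of -0.33 from hepatoblasts to Diff. hepatocytes was small but without overlap, as were the larger ones (adjusted p = 0.033, exact permutation test). Per length of the principal transcript the mean ratios were 1.03, 0.821 and 0.0381. The ratio of Aldh1a2 to Aldh1a1, the retinaldehyde dehydrogenases of embryo and adult liver, had means of -0.54, -7.46 and -12.88 on the log2 scale with a pseudocount of 0.5 counts, and the last 2 rest on 0 to 2 counts of Aldh1a2.

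**Figure D4:**
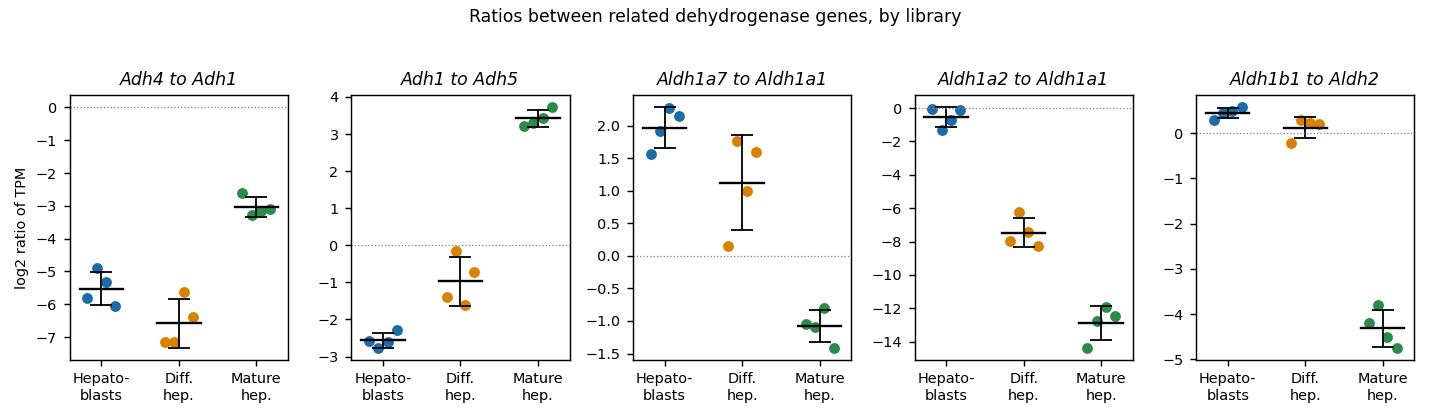
Each panel plots the log2 ratio of TPM of a pair of genes on the vertical axis for the 4 libraries of each group, with mean and SD as bars and the dotted line at equal levels. The points of Aldh1a7 to Aldh1a1 and of Adh1 to Adh5 lie on opposite sides of the dotted line in hepatoblasts and mature hepatocytes, while those of Aldh1b1 to Aldh2 cross it between replicates of Diff. hepatocytes.

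The genes whose patterns were most like each dehydrogenase were sought among 8697 tested genes with a mean of at least 10 CPM, by the root mean square difference of centred log2 CPM over the 12 libraries, which share the step between groups. Adh5 had the closest match, Mdh1, the cytosolic malate dehydrogenase (0.08, Pearson r = 0.998), before Lmbrd1 and Chuk. For Aldh2 they were Rmdn2, Eva1a and Abhd15 (0.12 to 0.14), and for Aldh1l1 they were Rida, Phyh and Fmo5 (0.15 to 0.17). Aldh1a7 was closest to Aox1, an aldehyde oxidase (0.18, r = 0.998), then to Gpt and Nat8f1, and Aldh3a2 to Abhd14b, Tmem220 and Ccdc107.

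Adh1, Aldh1a1 and Adh4, with the steepest differences, had larger root mean square differences, a measure that grows with the size of the change. Their Pearson r was still 0.992 to 0.997. For Adh1 the closest were Mbl2, Akr1c14 and Acaa1b (0.36 to 0.42), for Aldh1a1 they were Dio1, Sds and Apoc3 (0.47 to 0.51), and for Adh4 Pigr and 0610031O16Rik (0.35 and 0.45). Aldh1b1 was most like Rhbdf1, Sgsm1 and Kcnq1ot1 (0.26 to 0.28). Aldh1a2, itself under the 10 CPM limit, was most like Pola2, Tcf3 and Gmnn (0.37 to 0.45), the first and last of which act in DNA replication. That pattern rests on 11 to 30 counts a library in hepatoblasts and 0 to 2 in the other groups, and a link to replication was not tested.

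Of 18 other genes of the Adh and Aldh families, 13 were tested. Adh6a, Adh6b, Aldh3a1, Aldh3b2 and Aldh3b3 had at most 7 counts in any library. Diff. hepatocytes had 3 called higher and 3 lower than in hepatoblasts, with a median log2 difference of -0.13. Mature hepatocytes had 7 higher and 3 lower (median 1.20), and Diff. hepatocytes had 3 higher and 9 lower than mature hepatocytes (median -1.70). In these comparisons 14.9% and 14%, 20.1% and 24.7%, and 20.2% and 15.6% of all genes were called higher and lower. With library totals 4 were higher and 4 lower in mature hepatocytes than in hepatoblasts, and without the 50 most abundant genes in the totals 5 and 4.

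Aldh1l2, the mitochondrial counterpart of Aldh1l1, was highest in Diff. hepatocytes, at 28.5 to 39.2 CPM against 0.896 to 2.04 CPM in hepatoblasts and 0.385 to 0.875 CPM in mature hepatocytes. Its log2 differences were 4.55 ± 0.26 SE and 5.82 ± 0.31 SE (edgeR adjusted p = 1.35e-08 and 3.37e-09), and mature hepatocytes were below hepatoblasts (log2 -1.27 ± 0.33 SE, edgeR adjusted p = 0.00363). Its cytosolic counterpart Aldh1l1 was highest in mature hepatocytes. Aldh18a1, a proline synthesis enzyme, was at 42.9 to 74.8 CPM in hepatoblasts and 38.4 to 47.2 CPM after culture but at 1.3 to 4.61 CPM in mature hepatocytes, like Aldh1b1 in direction (log2 -4.54 ± 0.32 SE against hepatoblasts, edgeR adjusted p = 2.48e-08).

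Adh7, the class IV enzyme of the same cluster as Adh1, was at 0.597 to 0.994 CPM in hepatoblasts, 0.476 to 1.46 CPM after culture and 17 to 25.1 CPM in mature hepatocytes (log2 4.65 ± 0.30 SE for mature hepatocytes against hepatoblasts). Adhfe1, a mitochondrial hydroxyacid-oxoacid transhydrogenase, rose to Diff. hepatocytes by 1.92 ± 0.14 SE and was higher by 3.73 ± 0.15 SE in mature hepatocytes than in hepatoblasts, both on the log2 scale. Aldh4a1, which acts in proline breakdown, and Aldh3b1 fell from hepatoblasts to Diff. hepatocytes, by -1.70 ± 0.17 SE and -1.75 ± 0.26 SE. Aldh7a1, of lysine breakdown, was lower in Diff. than in mature hepatocytes (log2 -2.36 ± 0.15 SE).

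**Figure D5:**
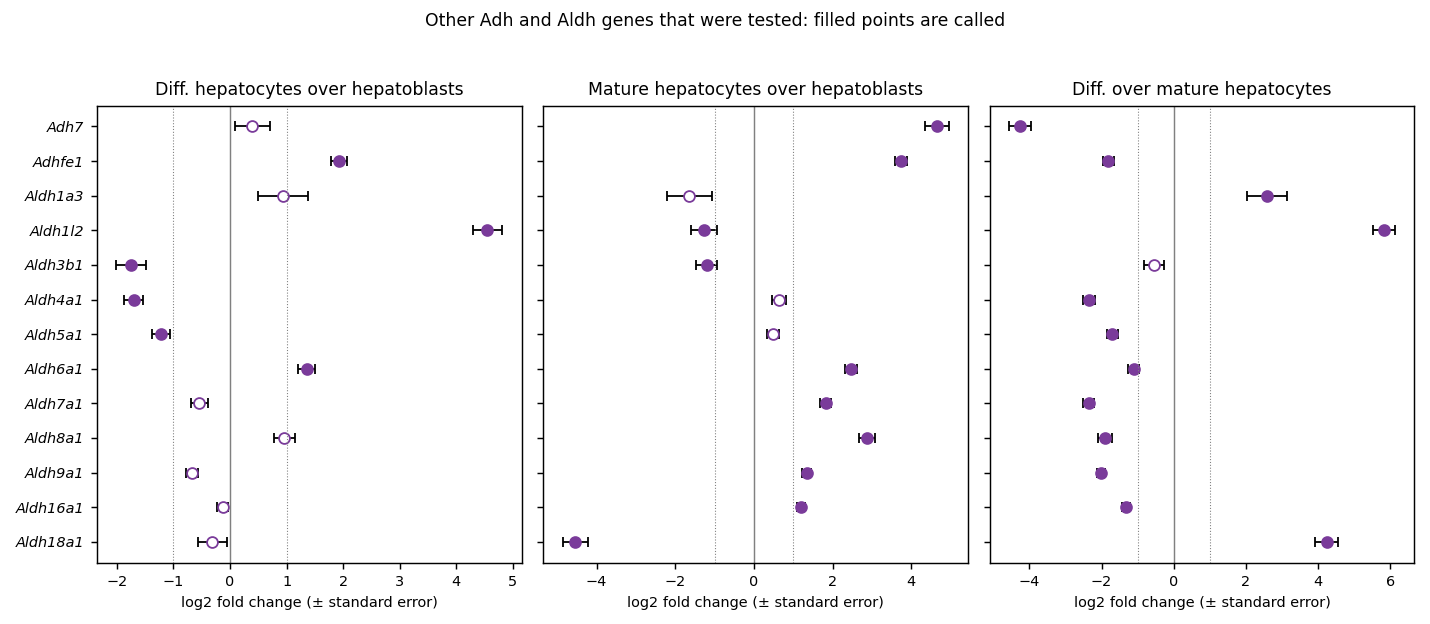
Log2 fold changes from edgeR with standard errors are shown for the 13 tested genes of the families outside the 10, in the 3 comparisons, with filled points for called genes. Aldh1l2 is the rightmost point in the panels of Diff. over hepatoblasts and Diff. over mature hepatocytes, and Aldh18a1 the leftmost in the middle panel.

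Genes that act beside these enzymes were counted from 3 lists. Of all genes tested, 14.9% rose and 14% fell from hepatoblasts to Diff. hepatocytes. In mature hepatocytes 20.1% were higher and 24.7% lower than in hepatoblasts. In Diff. hepatocytes 20.2% were higher and 15.6% lower than in mature hepatocytes. Of 24 tested retinoid genes of 25 listed, 4 rose and 5 fell from hepatoblasts to Diff. hepatocytes (median log2 -0.14), 12 were higher and 4 lower in mature hepatocytes than in hepatoblasts (1.18), and 5 were higher and 15 lower in Diff. than in mature hepatocytes (-1.66). With library totals 9 and 9 were higher and lower in mature hepatocytes than in hepatoblasts. Rdh7, a retinol dehydrogenase, rose from 3.1 to 6.73 CPM in hepatoblasts to 165 to 251 CPM after culture (log2 5.52 ± 0.25 SE, edgeR adjusted p = 2e-09) and was at 1411 to 1939 CPM in mature hepatocytes. Rarb, a retinoic acid receptor whose gene is known to respond to retinoic acid, fell from 2.9 to 5.18 CPM to 0.0986 to 0.389 CPM (log2 -3.96 ± 0.40 SE, edgeR adjusted p = 2.13e-06), and mature hepatocytes had 1.49 to 3.62 CPM. The Diff. values of Rarb rest on 2 to 9 counts a library.

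Cyp26a1, which breaks down retinoic acid, had 4 to 5 counts a library in hepatoblasts and 0 to 3 in Diff. hepatocytes, and 24.3 to 56.1 CPM in mature hepatocytes. Rdh16 was likewise at 0 to 5 counts in the libraries of the former groups and at 82.5 to 171 CPM in mature hepatocytes. Rdh9 was called higher in Diff. hepatocytes on 9 to 18 counts against 0 to 3 in hepatoblasts. Rdh1 was called lower there, at 0.0493 to 0.216 CPM against 0.935 to 1.76 CPM, on 1 to 5 counts a library against 29 to 54. The retinoic acid binding proteins Crabp1 and Crabp2 were at 0 in all mature libraries. In hepatoblasts they were at 0.431 to 0.866 and 0.232 to 0.537 CPM, on 13 to 29 and 7 to 18 counts a library. Dhrs9 was higher in Diff. than in mature hepatocytes (log2 2.70 ± 0.53 SE), at 23.3 to 31.8 CPM against 0.449 to 7.41 CPM. The mature libraries were uneven for Dhrs9, with 7 to 127 counts.

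The 7 ethanol and acetate genes had 1 higher and 1 lower in Diff. hepatocytes than in hepatoblasts (median log2 -0.22), 4 higher and 2 lower in mature hepatocytes than in hepatoblasts (2.85), and 2 higher and 5 lower in Diff. than in mature hepatocytes (-2.22). Among all genes the shares higher and lower were 14.9% and 14%, 20.1% and 24.7%, and 20.2% and 15.6%. Cyp2e1, the cytochrome P450 that oxidises ethanol, was at 2.52 to 3.05 CPM before and 2.31 to 4.24 CPM after culture, a log2 difference of 0.20 that was not called (edgeR adjusted p = 0.515). It was at 4287 to 9050 CPM in mature hepatocytes (log2 11.17 ± 0.32 SE against hepatoblasts). Cat, catalase of the peroxisome, rose at each step, from 188 to 240 CPM through 499 to 526 CPM to 3636 to 4687 CPM. Acss1, the mitochondrial acetyl-CoA synthetase, went down from 164 to 230 CPM through 42 to 70.5 CPM to 0.193 to 1.23 CPM (log2 -1.74 ± 0.22 SE and -8.51 ± 0.34 SE against hepatoblasts, both called). Akr1b3 was lower in mature hepatocytes than in hepatoblasts (log2 -1.23 ± 0.28 SE). Its difference of Diff. over mature hepatocytes lay at the fold threshold (log2 1.01 ± 0.28 SE) and was called under 15 of 23 other settings, with log2 0.75 and adjusted p = 0.0223 from edgeR without Diff. replicate 1, and the call was also lost without Diff. replicate 3 or mature replicate 1, 3 or 4. Acss3 was lower in Diff. than in mature hepatocytes (log2 -4.64 ± 0.44 SE).

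The 15 folate one-carbon genes, the surroundings of Aldh1l1, had 2 higher and 4 lower in Diff. hepatocytes than in hepatoblasts (median log2 -0.28), 4 higher and 4 lower in mature hepatocytes than in hepatoblasts (0.25), and 2 higher and 5 lower in Diff. than in mature hepatocytes (-0.44). That last split depended on the scaling, being 4 higher and 0 lower with library totals. Among all genes the main analysis called 14.9% and 14%, 20.1% and 24.7%, and 20.2% and 15.6% higher and lower in these comparisons. Ftcd, which feeds formimino groups of histidine into the folate pool, rose from 103 to 168 CPM in hepatoblasts to 259 to 381 CPM after culture, and mature hepatocytes had 612 to 727 CPM, above Diff. hepatocytes by less than the fold threshold (log2 -0.98 for Diff. over mature hepatocytes). Slc25a32, the mitochondrial folate carrier, rose by 1.72 ± 0.15 SE on the log2 scale to Diff. hepatocytes. Tyms, the thymidylate synthase, fell from hepatoblasts to Diff. hepatocytes (log2 -3.01 ± 0.08 SE). The mitochondrial enzymes Mthfd2 and Mthfd1l were lower in mature hepatocytes than in hepatoblasts (log2 -3.24 ± 0.23 SE and -4.16 ± 0.37 SE), and were higher in Diff. than in mature hepatocytes. Shmt1 was lower in Diff. than in mature hepatocytes (log2 -1.46 ± 0.15 SE).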

How the data were processed

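RNA of 12 libraries, 4 of each group, was sequenced by the authors as 75-base single reads of poly(A) RNA, prepared with a strand-specific workflow. The submitters' processing notes name FastQC 0.11.2, STAR 2.5.2b, Picard 2.10.2 and the build GRCm38. The authors deposited whole-number counts of reads by gene, without normalization, for the genes of Ensembl release 92. The strand setting of the counting is not given in the sources used here, so reads in antisense overlaps are uncertain.

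Gene positions, exon lengths and transcripts came from GENCODE M21, in which 53620 of 53715 identifiers were found, and promoter windows from RefSeq. The analysis used edgeR 4.0.16 in R 4.3.3. Genes reaching more than 10 counts in some library were kept (99.91% or more of each library's counts), libraries were scaled by TMM, and 1 quasi-likelihood model with group as its term was fitted over the 12 libraries, with Benjamini-Hochberg adjustment. Thresholds were an adjusted p of 0.01 and a log2 fold change of 1. CPM are TMM-scaled, and TPM sum to the same total in each library, so TPM were compared within libraries or as shares. After the values were seen, TPM were also set beside CPM where the order or overlap of groups depended on the scaling. Ratios used a pseudocount of 0.5 counts. Intervals of pooled counts and floors of 3 counts cover counting error only. Replicates of a group differed beyond sampling noise.

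The members and gene lists were chosen with earlier results of these data known. Genes outside the members were named by rule: from each list and comparison up to 2 called genes with the largest change in each direction, and for each member the 3 genes most like it. Some genes that the rule names are not reported here. Levels of named genes in other comparisons, and Aldh1l2 beside Aldh1l1, were described after their values were seen. Alternatives were DESeq2 1.42.0 (its Wald test and its size factors), edgeR's glmTreat, library totals, other filters, fits of 8 libraries, a replicate block and fits without each library.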

Additional observations from a re-analysis of the deposited data

Results flagged for a closer look

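Among 108 groups of 4 libraries tested for a value far from the other 3 (Dixon's criterion), 8 had such a value, where chance gives about 1 in 20, or 5.4. Adh4 was lower in Diff. replicate 1 (0.173 CPM) than in the other Diff. libraries (0.517 to 0.542 CPM), on 4 to 12 counts. In the same library the log2 ratio of Aldh1b1 to Aldh2 was -0.22, against 0.198 to 0.279, and Aldh16a1 was at 35.5 CPM, against 44.7 to 45.8 CPM. Aldh1l2 was at 39.2 CPM in Diff. replicate 4, against 28.5 to 29.1 CPM. Aldh8a1 was at 525 CPM in mature replicate 4, against 419 to 436 CPM, and Aldh18a1 at 4.61 CPM in mature replicate 3, against 1.3 to 1.8 CPM. The summed erythroid markers (3076 CPM) and macrophage markers (343 CPM) of hepatoblast replicate 1 also stood apart.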

How the results depend on the processing

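Of 683 alternative values of the dehydrogenases' fold changes, 667 kept their direction and their side of the thresholds. Aldh1b1 between Diff. hepatocytes and hepatoblasts, which was not called, changed sign with library totals (-0.21) and without the 50 most abundant genes (-0.00), and ranged from -0.01 to 0.25 without 1 library. Aldh3a2 in the same comparison ranged from -0.14 to 0.05 without 1 library. Adh4 and Adh5 lost their call between these groups with the fold threshold inside the test (glmTreat adjusted p = 0.0503 and 0.0194), and the number of dehydrogenases called there was 6 to 7 without 1 library. The labels do not say that a replicate number marks a shared source, and not every pair of same-numbered samples correlated over 0.1 (correlations of same-numbered Diff. and hepatoblast libraries of 0.324, -0.0589, 0.246 and 0.184, where replicates 1, 3 and 4 correlated best with their own number), so the numbers were not taken to pair the samples. With a replicate block 7, 10 and 8 dehydrogenases were called as before, with 17, 29 and 35 pathway genes in place of 17, 30 and 34, and Akr1b3 was not called between Diff. and mature hepatocytes. Under an adjusted p of 0.05 with no fold threshold, 28 pathway genes and 10615, 12870 and 11580 of all genes were called. With glmTreat 9 pathway genes were called in the first comparison, and 2966 and 4221 of all genes between Diff. hepatocytes and hepatoblasts or mature hepatocytes. With at least 10 counts in every library, where Adh4 and Aldh1a2 were not tested, 10 and 22 pathway genes and 2634, 4379 and 3107 of all genes were called, fewer genes being tested. In the main analysis these were 17 and 34 pathway genes and 5145, 7971 and 6362 of all genes. With a pseudocount of 5 the ratio of Adh4 to Adh1 differed by -1.58 between Diff. hepatocytes and hepatoblasts (exact permutation p = 0.0286). Library totals moved the median of all genes by -0.32, -0.85 and 0.53 on the log2 scale, and called 15 pathway genes higher and 17 lower in mature hepatocytes than in hepatoblasts, in place of 20 and 10, and 2007 and 7920 of all genes in place of 3580 and 4391. The causes were not tested. Depth limits Adh4 and Aldh1a2, which had at most 12 and 2 counts a library in Diff. hepatocytes.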
